A study of Arabidopsis thaliana with 12 samples.

Results

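Pentatricopeptide repeat proteins are a large plant family whose members bind organelle RNA through tandem helical repeats, with each repeat contacting a single base. They are encoded in the nucleus, work mostly in chloroplasts and mitochondria, and are known for RNA editing, splicing, end processing, stabilisation and translation there. The genes AT3G26630, AT5G39980 and AT4G21170 of this family were taken for their difference between dark and light in these arrays, and each is the only gene that the array annotation lists for its probe. They are 3 of 691 genes with such a single-gene probe, and all 3 passed the filter on dim probes, as did 597 of the 691 in all. The gene table used here gives the 3 genes by locus identifier, with no protein description, so their place in the family was taken as given and the task of each single protein is not stated.

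RNA was measured on 12 arrays from wild-type Arabidopsis thaliana of the Columbia 0 ecotype, the standard laboratory accession. The dark group held 6 samples from plants that had adapted to darkness overnight, and the light group held 6 samples from plants that were lit for 1 h once the night had ended. Organ, plant age, light intensity and harvest time are not stated in the labels, so 1 h of light cannot be told apart from a later time of day. Nothing in the labels ties each sample to plants of its own, and p-values measure only the spread between these arrays, part or all of which may be technical. The deposited values are linear intensities that end at 100. Summed over probes, an array reached 2943 to 3683, and the number of arrays limits the precision. Columns numbered 1 and 2, 3 and 4, and 5 and 6 of a group were alike, so errors taken over 6 arrays may be too small. The lists of root, pollen and seed marker genes had no tested single-gene probe, so tissue makeup was not examined. In whole samples, fewer cells with a transcript and less of it per cell cannot be told apart.

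Transcripts of AT3G26630 and AT5G39980 were higher after 1 h of light, and the transcript of AT4G21170 was lower. After quantile normalisation, which gives every array the same distribution of values, the light level was 1.75 times the dark level for AT3G26630 and 1.85 times for AT5G39980. For AT4G21170 the dark level was 1.66 times the light level. Because the genes were chosen for this difference, their values are given as a description without a test. All levels below are scaled intensities unless the deposited scale is named, and all log2 differences are light minus dark.

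AT3G26630 lay between 13.7 and 16.9 in the dark arrays, with a median of 16.1. In the light arrays it lay between 22.9 and 32.4, with a median of 26.7. Every light array was above every dark array, and the lowest light value was 1.36 times the highest dark value. The means were 15.7 ± 1.1 in the dark and 27.7 ± 3.4 in light (SD, n = 6), a log2 difference of 0.81 (SE 0.10). After quantile normalisation the light samples were more spread than the dark ones, with replicates 3 and 4 highest and replicate 1 lowest. As deposited the spread was nearly alike, with an SD of 14.4% of the mean in the dark and 15.5% in light. Taken by replicate number, the log2 difference ran from 0.48 in number 1 to 0.96 in number 2, with a median of 0.86. It was above 0 in 6 of 6 numbers, as any pairing of groups that do not overlap must give.

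AT5G39980 lay between 0.193 and 0.291 in the dark arrays, with a median of 0.201. In the light arrays it lay between 0.291 and 0.495, with a median of 0.401. The groups just touched, because dark replicate 3 (0.2915) and light replicate 6 (0.2912) were almost level. Apart from replicate 3, the dark values stayed within a narrow band, up to 0.208. The means were 0.215 ± 0.038 in the dark and 0.399 ± 0.068 in light (SD, n = 6), a log2 difference of 0.89 (SE 0.15). By number it ran from 0.57 in number 3 to 1.25 in number 4, with a median of 0.93. It was above 0 in 6 of 6 numbers, which groups that barely touch nearly fix in advance.

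AT4G21170 lay between 0.877 and 1.12 in the dark arrays, with a median of 1.01. In the light arrays it lay between 0.469 and 0.798, with a median of 0.590. Every light array was below every dark array, though light replicate 5, the highest of its group, came close to dark replicate 2. The means were 0.995 ± 0.091 in the dark and 0.606 ± 0.114 in light (SD, n = 6), a log2 difference of -0.73 (SE 0.13). By number it ran from -1.08 in number 4 to -0.39 in number 5, with a median of -0.77. It was below 0 in 6 of 6 numbers, which again follows from groups that do not overlap. Over the whole array 26.6% of the probes tested had groups of 6 that did not overlap, 13.2% with light higher and 13.4% with light lower, and since the genes were chosen on this contrast nothing is read from the members beside that share.

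**Figure D1:**
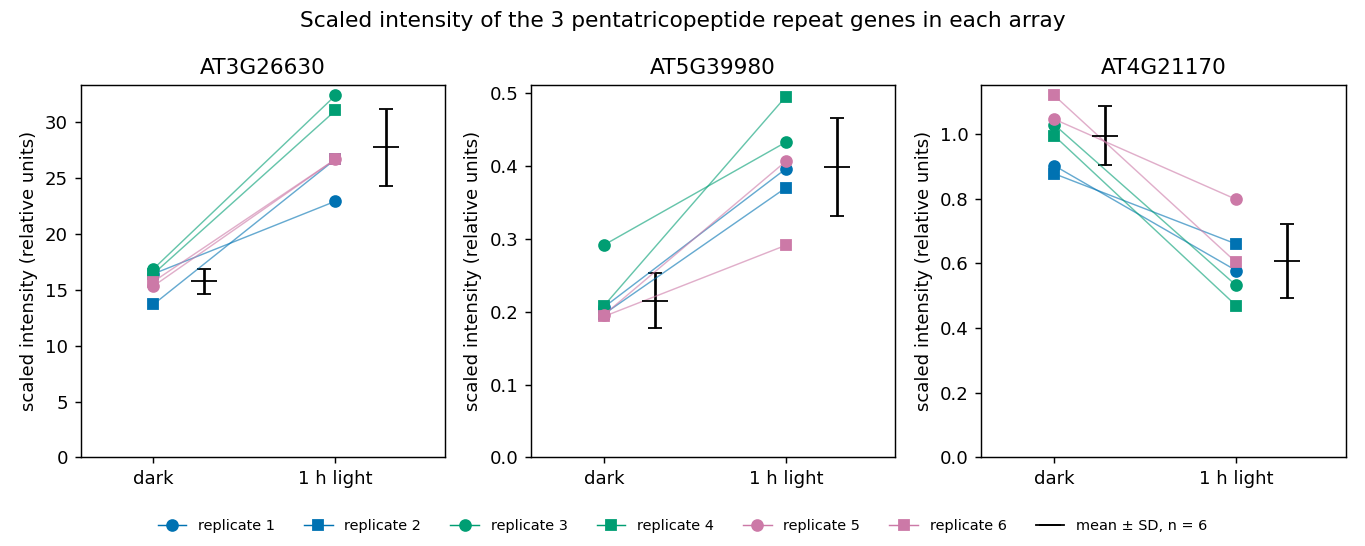
Scaled intensity (relative units, y axis from 0) of the 3 genes in the 6 dark and 6 light arrays; lines join arrays of the same replicate number, colours mark consecutive numbers, and bars give the mean ± SD (n = 6). AT3G26630 and AT5G39980 were higher in light and AT4G21170 lower, and only for AT5G39980 did the groups touch, at dark replicate 3 and light replicate 6.

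The place of each gene within an array is not changed by scaling an array with a single factor or by quantile normalisation, apart from ties. Among the 3439 probes, counted from the brightest, AT3G26630 stood at places 32 to 38 in the dark and 19 to 25 in light. It was among the brightest features of every array, and moved up in light. AT5G39980 stood at places 1504 to 1963 in the dark (median 1921) and 900 to 1505 in light (median 1132). AT4G21170 stood at places 340 to 453 in the dark (median 385.5) and 507 to 958 in light (median 726.5). Over the 2966 probes tested, the mean levels lay at the 99.1 percentile for AT3G26630, the 51.0 for AT5G39980 and the 83.1 for AT4G21170. None of the 3 probes was listed at 0 in any array, so the floor on low values did not enter their differences.

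The size of the differences depended on the scaling, but the direction did not. On the deposited scale AT3G26630 ran from 13.4 to 19.2 in the dark and from 27.5 to 39.3 in light. AT4G21170 ran from 1.06 to 1.37 in the dark and from 0.472 to 0.591 in light. On that scale the groups of these 2 genes were farther apart than after quantile normalisation. AT5G39980 went the other way, from 0.172 to 0.346 in the dark and from 0.250 to 0.501 in light. Its groups overlapped more as deposited, with dark replicate 3 (0.346) above light replicates 2 (0.318), 5 (0.325) and 6 (0.250). The log2 difference of AT3G26630 was 0.98 as deposited, 1.09 with median centring and 1.34 with centring on the 75th percentile, against 0.81 after quantile normalisation. That of AT4G21170 was -1.21, -1.09 and -0.84, against -0.73. AT5G39980, nearest to the middle of the array, had 0.70, 0.81 and 1.07, against 0.89.

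These scalings also moved the median log2 difference of all probes tested, which was -0.21 as deposited, -0.09 with median centring and 0.16 with centring on the 75th percentile, and -0.01 after quantile normalisation. Relative to that median the log2 difference was 1.18 for AT3G26630 under each of the 3 linear scalings. It was 0.91 for AT5G39980 under the same 3 scalings. For AT4G21170 it was -1.002 as deposited and with median centring, and nearly the same with centring on the 75th percentile. A single factor per array shifts every probe and their median alike, apart from effects of the floor. The likeness under these 3 scalings therefore follows from the arithmetic and is no sign of stability. After quantile normalisation the values relative to the median were 0.82, 0.90 and -0.72, and with cyclic loess, which aligns arrays along the intensity range, they were 0.96, 0.87 and -0.66. Between the linear and the 2 intensity-dependent scalings AT5G39980, of middle level, changed little. AT3G26630 and AT4G21170 had smaller absolute values under the 2 intensity-dependent scalings.

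**Figure D2:**
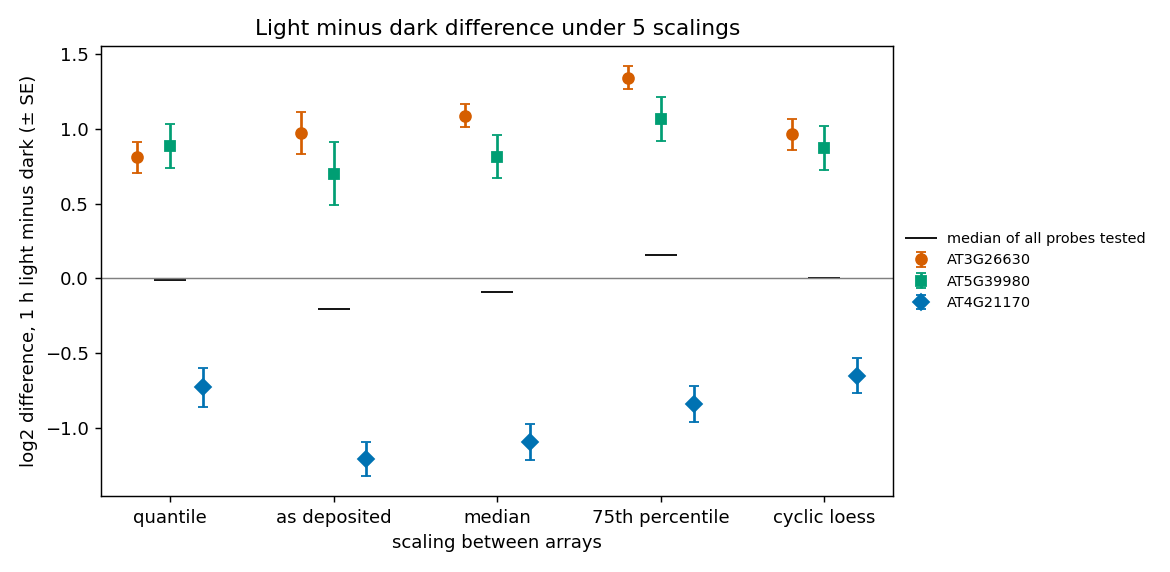
Log2 difference, 1 h light minus dark, of the 3 genes (points, bars ± SE from limma over 12 arrays) under 5 scalings between arrays, with the median of all probes tested as a black dash. All points keep their side of 0, and AT3G26630 runs from 0.81 to 1.34.

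For AT3G26630, the spread within a group on the deposited scale went with the array. Deposited values of AT3G26630 averaged 16.6 in dark columns 1 and 2, 18.6 in columns 3 and 4 and 13.5 in columns 5 and 6. In light the same pairs averaged 30.0, 38.1 and 27.9. Columns 3 and 4 were highest and columns 5 and 6 lowest in both groups, and columns 3 and 4 also had the highest column medians of each group. As multiples of the array's own median, AT3G26630 lay between 61.1 and 69.7 in the dark and between 134 and 145 in light. AT4G21170 did not go with the array in light, where its deposited pair means were 0.498, 0.502 and 0.532, highest in columns 5 and 6. Its coefficient of variation in light was 8.95% as deposited and 18.8% after quantile normalisation. It lay between 4.30 and 5.28 times the array median in the dark and between 1.81 and 2.90 times in light. AT5G39980 lay between 0.786 and 1.23 times in the dark and between 1.19 and 1.87 times in light, so its groups again touched.

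In both groups the scaled pair means of the 3 genes ranged over more than the mean gap within pairs. In the dark the range was 1.59 against 1.19 for AT3G26630, 0.055 against 0.032 for AT5G39980 and 0.193 against 0.044 for AT4G21170. For AT3G26630 the pair means in light were 24.8, 31.7 and 26.7, a range of 6.91 against a mean gap of 1.70 within pairs. For AT5G39980 in light the pair means ranged over 0.115 against a mean gap of 0.068 within pairs. For AT4G21170 in light they ranged over 0.200 against 0.113, and its difference was largest in numbers 3 and 4 (log2 difference -1.02) and smallest in numbers 1 and 2 (-0.53). The spread within groups on the log2 scale was 0.148 for AT3G26630, 0.242 for AT5G39980 and 0.209 for AT4G21170 (SD about the group means). The median over the 100 probes nearest in level was 0.173, 0.347 and 0.229. Since a small spread also favours being taken as changed, these values describe the 3 probes and were not tested.

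After quantile normalisation the 3 differences were ordinary in size for these arrays. Their absolute log2 difference was at the 64.5 percentile for AT3G26630 among probes tested, the 68.1 for AT5G39980 and the 60.3 for AT4G21170. Percentiles were not taken under the 3 linear scalings, where AT3G26630 and AT4G21170 had larger absolute differences. Many dim probes had larger fitted differences, and AT3G26630 stood among few probes of its brightness.

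**Figure D3:**
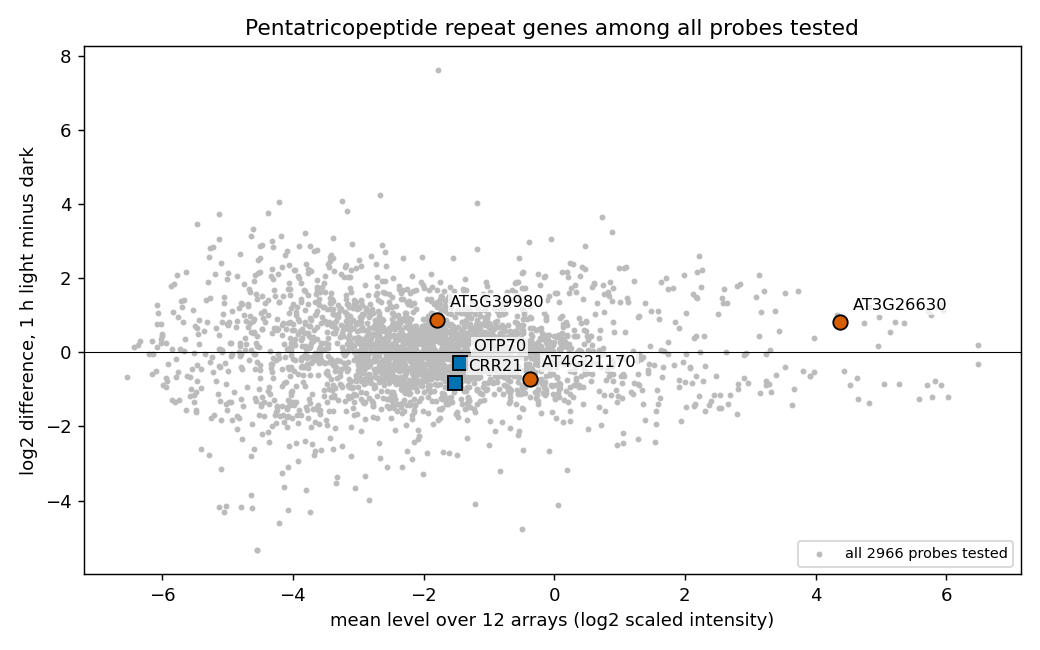
Log2 difference, 1 h light minus dark, against mean level over 12 arrays (log2 scaled intensity) for the 2966 probes tested (grey), with the 3 chosen genes (orange circles) and 2 further pentatricopeptide repeat genes (blue squares). AT3G26630 lies far to the right, at the 99.1 percentile of level, and all 5 marked genes lie within the band of the other probes.

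A further probe is annotated to AT3G26630 together with AT2G42920, so its signal belongs to neither gene alone. It was dim, at the 11.4 percentile of level. It lay between 0 and 0.110 in the dark (median 0.065, listed at 0 in 1 array) and between 0.040 and 0.183 in light (median 0.095). Its groups overlapped widely and it did not pass the test across all probes (limma, log2 difference 1.01, SE 0.63, adjusted p = 0.22). The 2 probes annotated to AT3G26630 thus differed widely in level, with dark medians of 0.065 here and 16.1 on the single-gene probe. Which of them reports the AT3G26630 transcript was not tested, so the bright signal has no second measure here.

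Other pentatricopeptide repeat genes were looked up from a list of 135 gene names, to which 7 loci were added whose synonyms name the family. Of the 94 loci matched, 3 were on a single-gene probe, and 2 of these, CRR21 and OTP70, were tested. None was higher in light, 1 was lower (CRR21) and 1 did not pass, where 19.9% of all probes tested were higher and 20.5% lower, 40.4% in all (42.6% of single-gene probes). That even split depended on the scaling, with 14.3% higher and 29.7% lower as deposited, 17.8% and 27.7% with median centring, and 26.4% and 18.3% with centring on the 75th percentile. The median log2 difference of these 2 was -0.56, against -0.01 over all probes, and 2 genes say little about a family of this size. Another 5 probes held a listed gene together with genes outside the list, and are not given.

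CRR21, an editing factor for a plastid NDH subunit transcript, fell after 1 h of light. It lay between 0.316 and 0.554 in the dark (median 0.547) and between 0.162 and 0.401 in light (median 0.269). The groups overlapped, because replicates 1 and 2 were low in both, but light was below dark in 6 of 6 replicate numbers. The mean went from 0.478 ± 0.111 to 0.276 ± 0.096 (SD, n = 6; limma, log2 difference -0.83, SE 0.25, adjusted p = 0.020). The call was lost with consecutive numbers averaged to 3 values a group (adjusted p = 0.13), where 27.4% of all probes passed, and without replicates 3 and 4 (adjusted p = 0.17).

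OTP70, a factor for splicing of a plastid RNA polymerase transcript, did not pass. It lay between 0.375 and 0.504 in the dark (median 0.394) and between 0.292 and 0.407 in light (median 0.315). Light was below dark in 5 of 6 numbers, number 2 being the exception, and the groups overlapped (limma, log2 difference -0.30, SE 0.12, adjusted p = 0.066). It was past the threshold as deposited (log2 difference -0.54, adjusted p = 0.0066) and with arrays centred on their medians (log2 difference -0.43, adjusted p = 0.011). OTP85, an editing factor for a plastid NDH subunit transcript, was listed at 0 in 5 dark and 4 light arrays and was left out by the filter on dim probes. Its other values were 0.025 in dark replicate 5, 0.063 in light replicate 2 and 0.119 in light replicate 4.

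**Figure D4:**
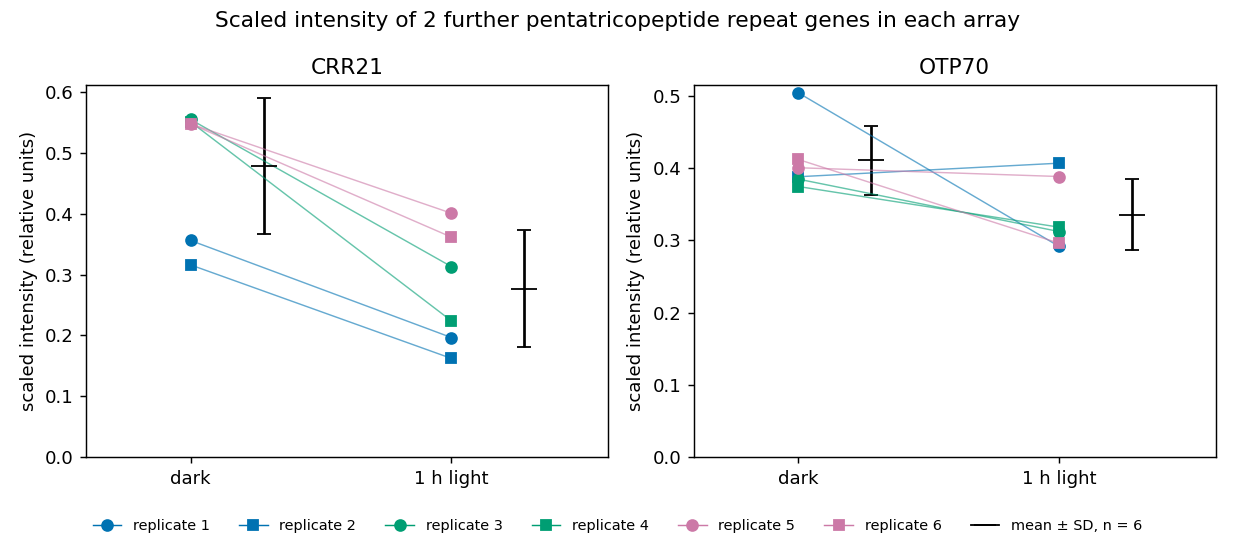
Scaled intensity (relative units, y axis from 0) of CRR21 and OTP70 in the 6 dark and 6 light arrays; lines join arrays of the same replicate number and bars give the mean ± SD (n = 6). CRR21 was lower in light within each of the 6 numbers while replicates 1 and 2 were low in both groups, and OTP70 overlapped between the groups.

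Of 99 names of other factors that act on organelle RNA (sigma factors, nucleases, RNA-binding and splicing proteins), 63 were matched and 1 was tested. That gene, ATAB2, known for its part in translation of photosystem subunits, did not pass. It lay between 0.072 and 0.195 in the dark and between 0.054 and 0.203 in light, with full overlap (limma, log2 difference 0.09, SE 0.35, adjusted p = 0.87). Its log2 difference was 0.31 with median centring and 0.57 with centring on the 75th percentile, and did not pass there either (limma, adjusted p = 0.46 and 0.18). None of the 6 genes next to the 3 chosen ones on the chromosomes was on a tested single-gene probe, so nothing can be said of neighbouring transcription.

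The profile of each gene over the 12 arrays was compared with those of the other 597 single-gene probes tested, by Pearson correlation of log2 values. The arrays fall into 2 groups, so any probe with a clear difference in the same direction scores high, and the correlation of deviations from the group means is given beside it. Both are descriptions over 12 arrays that the probes share, with no test. Most like AT3G26630 were RAP74 (0.958, deviations 0.657), named for the large subunit of transcription factor IIF, AT3G54210 (0.940, deviations 0.363) and AT1G69910 (0.939, deviations 0.329). RAP74 went from a mean of 3.01 in the dark to 4.74 in light, a log2 difference of 0.66, smaller than that of AT3G26630. Its deviations within groups also followed AT3G26630 most closely of these 3.

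Most like AT5G39980 were AT1G35210 (0.961, deviations 0.782), AT1G69910 (0.950, deviations 0.724) and AT3G26630 itself (0.919, deviations 0.493). AT1G35210 went from a mean of 0.236 to 0.480, a log2 difference of 1.03. The 2 genes higher in light thus shared AT1G69910 among their nearest profiles and stood near each other. Most like AT4G21170 were AT3G44570 (0.946, deviations 0.717), DI21 (0.932, deviations 0.629), named for induction by drought, and AT1G76450 (0.924, deviations 0.577). All of them were lower in light, with log2 differences of -0.94, -2.85 and -0.89. DI21 went from a mean of 0.427 in the dark to 0.068 in light. Against the 2 genes higher in light, the deviations of AT4G21170 correlated at -0.269 (AT3G26630) and -0.240 (AT5G39980).

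**Figure D5:**
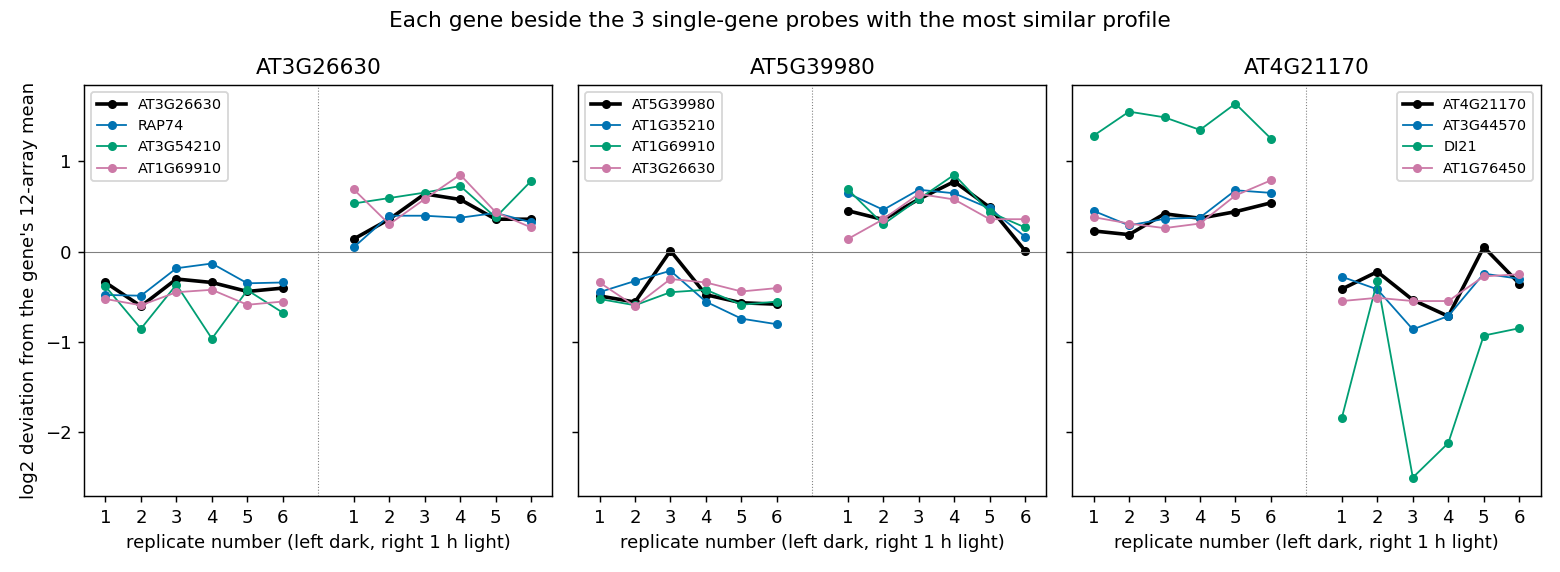
Log2 deviation from each gene's own 12-array mean for the 3 genes (black) and the 3 single-gene probes most like each (coloured), by replicate number in the dark (left of each panel) and in 1 h light (right). Each set lies on one side of 0 in most dark arrays and on the other in most light arrays, while single arrays depart: AT3G26630 is lower than AT3G54210 and AT1G69910 in light replicate 1, and DI21 is farther from 0 than AT4G21170 in most arrays.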

How the data were processed

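Of each array, 1 deposited intensity per probe was used. No source used here states how the authors scanned, background-corrected and scaled these intensities. Arrays were quantile normalised, and values were raised to a floor of 0.0067 (the 1% quantile of all deposited values above 0) and put on the log2 scale. The filter on dim probes removed 473 of 3439, those with over 6 of the 12 arrays at the floor. Light and dark were compared over the 2966 probes left in limma 3.58.1 (R 4.3.3, lmFit, eBayes, two-sided). Benjamini-Hochberg adjustment and a threshold of 0.05 were used. The fit was also run on simulated data with independent errors between arrays. That run could not show whether likeness between columns makes the errors too small. Figures were drawn with matplotlib 3.10.9. Genes came from the platform annotation, matched by gene identifier to a table of the TAIR10.1 assembly (691 of 692 single-gene probes). The members and lists were chosen with earlier results of these data known. The text names the 3 members, all tested genes of lists with 12 or fewer, and the 3 nearest profiles of each member. The sequence-defined list of repeat proteins was not run, since no protein sequences were used here. Replicate numbers, given in the sample titles, are shared between the groups. Over the probes tested, the deviations of same-numbered dark and light columns correlated at 0.174 to 0.320. Each was above the correlation of that dark column with any light column of another number. The labels do not say that equal numbers mark paired samples. For AT3G26630, AT5G39980 and AT4G21170 the dark and light deviations fell on the same side in 4, 3 and 3 of 6 numbers. Alternatives covered scaling, floor, filter, variance model, blocks, pair means and left-out arrays.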

Additional observations from a re-analysis of the deposited data

Results flagged for a closer look

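Of 12 sets of 6 values examined (the 3 chosen genes, CRR21, OTP70 and ATAB2, in each group), 2 held a sample that stood well apart from the other 5. About 1 set in 20 would do so by chance. AT5G39980 in dark replicate 3 had a log2 scaled intensity of -1.78, against a median of -2.35 in the other dark arrays. Without that array its log2 difference was 0.96 and the groups no longer touched. Leaving out light replicate 6 instead gave 0.99, and the groups did not touch there either. OTP70 in dark replicate 1 was at -0.99, against a median of -1.37.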

How the results depend on the processing

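All 3 chosen genes kept their direction under every alternative run, but they were chosen on this contrast, so this is no test of it. Changes of floor or filter, a variance trend with intensity, blocks and pair means left their log2 differences exactly the same. With values above the floor and groups of equal size this had to be so, and only the SE could change. For AT3G26630 the log2 difference moved by more than the spread within groups as deposited (0.98), with median centring (1.09), with centring on the 75th percentile (1.34) and with cyclic loess (0.97). For AT4G21170 it did so as deposited (-1.21) and with median centring (-1.09). Leaving out single arrays or pairs of numbers gave 0.74 to 0.86 for AT3G26630, 0.83 to 0.99 for AT5G39980 and -0.82 to -0.60 for AT4G21170. The count of 1198 probes passing ran from 856 to 1177 with arrays or pairs left out and was 814 with consecutive numbers averaged. Of the 2 further pentatricopeptide repeat genes tested, 2 passed as deposited, with median centring and with the floor at the 25% quantile, and 0 with consecutive numbers averaged, and 0 to 2 did with arrays or pairs left out. The count for the other organelle RNA factors was 0 throughout, and ATAB2 ran from -0.069 to 0.35 with arrays or pairs left out, below 0 in some, and up to 0.57 under the other settings. The replicate block (1314 probes passing) left CRR21 past the threshold (limma, adjusted p = 0.0029) and OTP70 and ATAB2 short of it (limma, adjusted p = 0.11 and 0.85). Under this block the 3 chosen genes had the same log2 differences, as groups of equal size require. The other genes named as nearest profiles were not looked up. The cause of these changes was not tested.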
